A study of Mus musculus with 14 samples.

Results

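The Bcl2 family genes described here are 4 pro-survival genes, Bcl2, Bcl2l1, Mcl1 and Bcl2a1a, and 6 pro-death genes, Bax, Bak1, Bad, Bid, Bcl2l11 and Bbc3, chosen by name. Their probe sets, the groups of short oligonucleotides on an Affymetrix array that measure a transcript, were taken wherever the annotation gave a member gene and no other. This gave 23 probe sets of 8 genes, of 22690 probe sets and 12393 named genes in all. Bax had no probe set in the annotation used and was not analysed here. Bcl2a1a was annotated only on 3 probe sets shared with other genes, so it has no value here. Of the 23 probe sets, 18 were bright enough to be tested, 9 of the 3 pro-survival genes and 9 of the 5 pro-death genes.

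The arrays measured whole-thymus RNA of female C57BL/6 mice that the labels give as 21 days old, ovariectomised on day 26, then kept on the phytoestrogen-free AIN-93G diet and treated from day 30. The labels do not say whether days 26 and 30 are days of age. Estradiol mice were injected under the skin each day with 125 ng of 17β-estradiol (E2), an estrogen made by the ovary, dissolved in 0.02 ml of corn oil, and their thymus RNA was taken on days 2, 3 and 6. Genistein mice ate the same diet freely, with the soy compound genistein, a plant ligand of the estrogen receptors, added at 1500 ppm, and were sampled on the same days. Control mice were untreated and sampled at day 0. Each of the 7 groups had 2 arrays, each hybridised with RNA pooled from 3 mice and called an independent biological replicate by the labels. Ovariectomy and the base diet were thus shared by all groups, while only the estradiol mice had corn oil injections. No untreated array of days 2, 3 or 6 was analysed, so treatment and elapsed time cannot be told apart against the control. In RNA of a whole organ, fewer cells of a type and less RNA per cell cannot be told apart either.

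Family members are proteins that meet at the outer membrane of the mitochondrion. Pro-survival members hold the effectors Bax and Bak in check, and the BH3-only members bind the pro-survival proteins, or the effectors themselves, and so release or switch on the effectors, which open the membrane and start caspase activation. The thymus is a tissue where this balance is used heavily, since most developing T cells die there, either for want of a useful receptor or because the receptor binds self too strongly. Bim, the product of Bcl2l11, is known in mice for the second of these deaths, Bcl-xL, from Bcl2l1, for keeping double-positive thymocytes alive until selection, and Mcl1 for survival at several thymocyte stages.

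The tissue label held: mean signals were 2400 for Rag1, the recombinase gene of developing lymphocytes, 1840 for the brighter probe set of the coreceptor gene Cd8a and 807 for that of Cd4. The estrogen receptor probe sets of Esr1 and Esr2 averaged 15.5 and 14.2 and lay below the brightness filter. That filter ranked probe sets by mean log2(signal + 16), and the lowest mean tested, turned back to signal, was 44.5. Signals are array intensities rescaled so that every array had a 2%-trimmed mean of 150.04. The deposited values had that mean on 11 arrays, and were 1.489 times higher on replicate 2 of estradiol day 2, and 2.002 and 2.23 times higher on replicates 1 and 2 of estradiol day 3. The ratio of 3′ to 5′ Gapdh control signals, a measure of RNA integrity, was 1.266 on replicate 1 of estradiol day 2, 1.503 on replicate 1 of genistein day 6, and between 0.867 and 1.105 on the other 12 arrays.

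For 3 members, 1 promoter window each is printed because it holds a motif of a factor known to control the gene in thymocytes or other lymphocytes. The other annotated windows of these genes held none of the motifs searched and are not printed. FOXO factors are known to activate Bcl2l11 and Bbc3, and RORγt to sustain Bcl2l1 in double-positive thymocytes. All windows run 250 bases before to 50 after an annotated transcription start, are RefSeq sequence of build GRCm38.p6 on the gene's strand, and carry the motif in capitals. The Bcl2l11 window lies at chr2:128125788-128126087 on the plus strand, the Bbc3 window at chr7:16310011-16310310 on the plus strand, and the Bcl2l1 window at chr2:152828440-152828739 on the minus strand.
Bcl2l11: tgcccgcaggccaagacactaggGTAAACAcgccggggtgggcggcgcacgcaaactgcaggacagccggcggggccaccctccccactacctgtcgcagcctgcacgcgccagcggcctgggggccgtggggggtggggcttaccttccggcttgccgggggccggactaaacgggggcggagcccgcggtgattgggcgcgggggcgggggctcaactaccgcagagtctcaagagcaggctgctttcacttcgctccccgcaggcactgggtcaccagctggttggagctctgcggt
Bbc3: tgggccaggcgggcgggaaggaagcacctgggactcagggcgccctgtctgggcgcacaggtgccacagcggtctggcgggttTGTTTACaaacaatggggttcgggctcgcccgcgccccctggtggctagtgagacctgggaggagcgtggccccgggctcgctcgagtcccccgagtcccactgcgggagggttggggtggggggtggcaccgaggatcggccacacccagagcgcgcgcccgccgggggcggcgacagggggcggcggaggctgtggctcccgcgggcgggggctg
Bcl2l1: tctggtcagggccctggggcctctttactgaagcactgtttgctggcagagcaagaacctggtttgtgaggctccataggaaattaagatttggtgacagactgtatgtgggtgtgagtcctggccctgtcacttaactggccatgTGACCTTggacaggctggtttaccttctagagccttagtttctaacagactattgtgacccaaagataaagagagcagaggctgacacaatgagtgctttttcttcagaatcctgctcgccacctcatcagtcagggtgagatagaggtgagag
The FOXO motif searched was GTAAACA on both strands. It began 227 bases before the start site in the Bcl2l11 window, and its reverse complement, TGTTTAC, 167 bases before it in the Bbc3 window. The ROR half-site was AAGGTCA on both strands, present in the Bcl2l1 window as TGACCTT 104 bases before the start site. Among all 32851 promoter windows, 3.65% held the FOXO motif and 4.72% the ROR half-site. Of the 16 windows of the 10 member genes, 2 held the FOXO motif and 1 the ROR half-site. None of the 16 held the estrogen response element, searched as GGTCA and TGACC with any 3 bases between them, which was in 0.07% of all windows. None held the glucocorticoid response element, searched as AGAACA and TGTTCT with any 3 bases between them, which was in 0.00913%. A match is a string of letters in a window, and no binding was measured here.

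Across all comparisons, no member probe set passed limma's test at an adjusted p of 0.05 (Benjamini-Hochberg over the 13575 probe sets tested). Against control, 0 of 18 passed over the mean of the estradiol days and 3 of 18 had an unadjusted p below 0.05, beside 0.604% and 14.8% of all probe sets tested. Over the mean of the genistein days 0 of 18 passed and 2 of 18 had an unadjusted p below 0.05, beside 0.0368% and 11.1%. Estradiol minus genistein over the mean of days gave 0 of 18 and 1 of 18, beside 1.41% and 17.1%. At the unadjusted level the members' counts were thus near the background against control and under it between the treatments. The treatments share their 2 control arrays, so their changes against control are not independent of each other.

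Day by day, 1 of 18 probe sets had an unadjusted p below 0.05 at estradiol day 2, 3 at day 3 and 3 at day 6, and none passed the adjusted test. The background was 0.0884% passing and 12.3% at the unadjusted level on day 2, 0.0663% and 10.2% on day 3, and 0.656% and 14% on day 6. For genistein the counts at the unadjusted level were 2, 1 and 1 on days 2, 3 and 6, beside 11.8%, 5.73% and 10.4% of all probe sets, with 0 passing on each day beside 0.0147%, 0.00737% and 0.00737%. Estradiol against genistein gave 2, 0 and 1 of 18 at the unadjusted level on days 2, 3 and 6, beside 6.72%, 6.7% and 13.4%, and again 0 passing, beside 0.081%, 0.0147% and 0.265%.

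**Figure D1:**
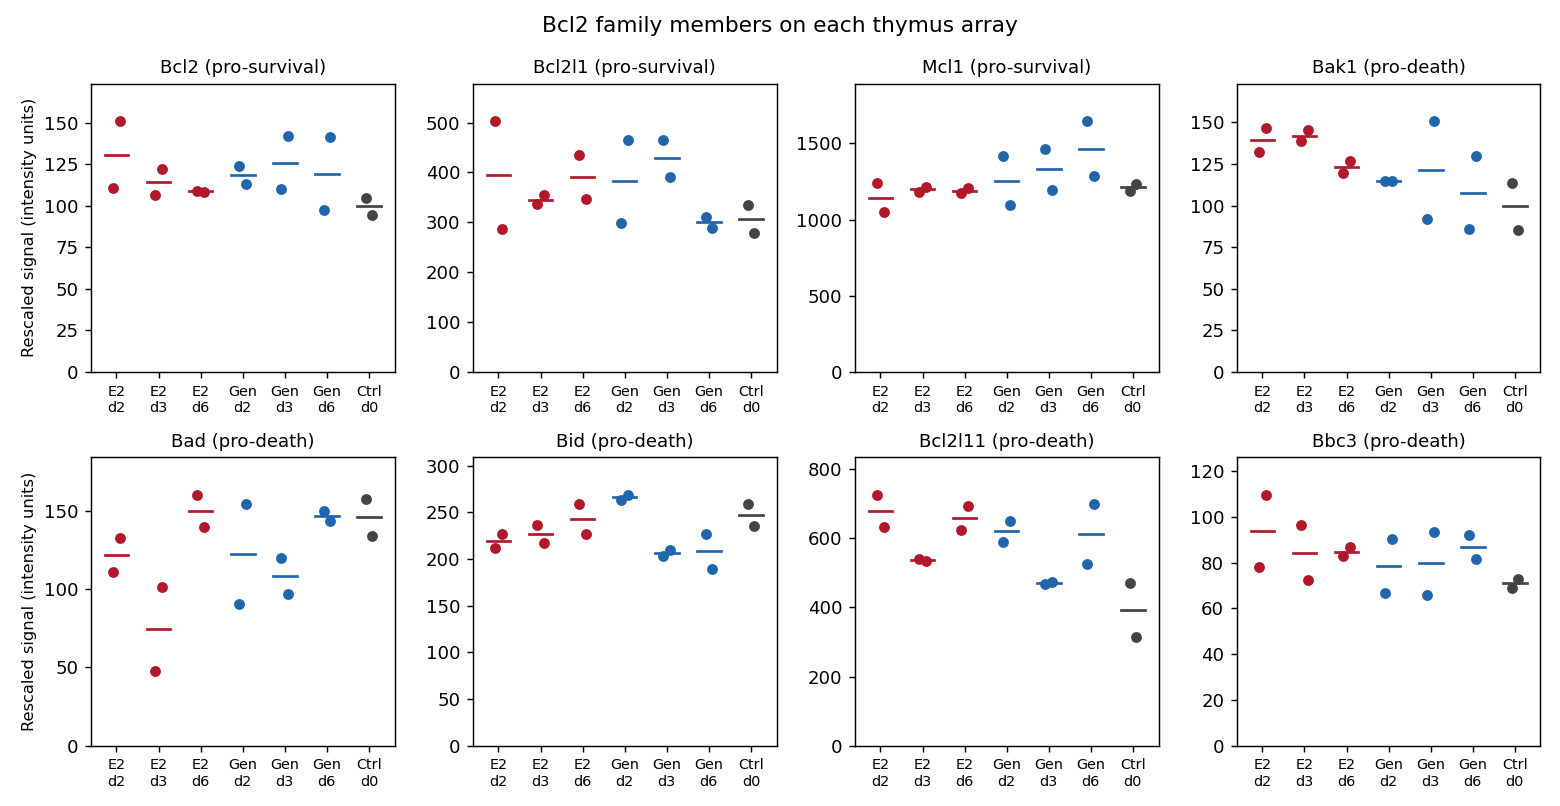
Rescaled signal (linear axis starting at 0, own range in each panel) of the brightest tested probe set of each of the 8 member genes. Points are the 2 arrays of a group and short lines their mean, for estradiol (E2, red) and genistein (Gen, blue) on days 2, 3 and 6 (d2, d3, d6) and untreated control (Ctrl, grey). The Bcl2l11 panel has all 6 estradiol points, between 533.6 and 724.3, above both control points, 469.0 and 314.6.

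Bcl2l11, whose product Bim is the BH3-only protein most tied to deletion of self-reactive thymocytes, came closest to a call. Its brightest probe set, 1456005_a_at, read 724.3 and 632.7 on estradiol day 2, 539.0 and 533.6 on day 3, and 623.7 and 693.1 on day 6. Genistein arrays read 590.0 and 648.9 on day 2, 468.6 and 473.7 on day 3, and 526.1 and 699.3 on day 6. Control arrays read 469.0 and 314.6. All 6 estradiol arrays lay above both control arrays, while 1 genistein day 3 array lay just under the higher control. In signal the 2 control arrays lay further apart than the 2 arrays of any other group but genistein day 6, and as a ratio further apart than those of any group.

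On this probe set the log2 change over the mean of the estradiol days was 0.67 ± 0.149 (SE, 2 arrays a group), a 1.59-fold difference with a 95% confidence interval of 0.35 to 0.99, and limma's adjusted p was 0.0644. Single days gave 0.79 (adjusted p = 0.127), 0.46 (0.424) and 0.75 (0.084) for days 2, 3 and 6 by the same test. Over the mean of the genistein days the change was 0.53, with an interval of 0.21 to 0.85 and an adjusted p of 0.315. Days 2, 3 and 6 of genistein gave 0.66, 0.28 and 0.64. Estradiol minus genistein over the mean of days was 0.14, with an interval of -0.09 to 0.37 and an adjusted p of 0.525, so a difference between treatments of the size seen against control lay outside the interval. The control arrays set much of the size: without control replicate 1 the estradiol change was 0.94 with an adjusted p of 0.0111 in limma, and without control replicate 2 it was 0.39 with an adjusted p of 0.826.

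The other 3 tested probe sets of Bcl2l11 had the same sign over the mean of days in both treatments. Probe set 1435448_at read 348.6 to 595.2 on estradiol arrays, 422.7 to 468.2 on genistein arrays, and 394.0 and 364.4 on control arrays. Here it was genistein whose 6 arrays all exceeded both controls, although its log2 change, 0.24, was slightly smaller than the 0.28 of estradiol, for which replicate 1 of day 2 lay below both controls. Probe set 1435449_at changed by 0.39 with estradiol, all 6 arrays (158.3 to 227.4) above the controls (149.9 and 124.0), and by 0.33 with genistein, whose arrays spread over 120.0 to 261.3. Probe set 1456006_at gave 0.20 and 0.01. None of these 3 passed, with limma's adjusted p between 0.427 and 0.989 over the mean of days against control. Across the 14 arrays, which share groups and array-wide scale, the pairwise Pearson r of the 4 probe sets was between 0.21 and 0.74. The dim probe set 1426334_a_at, below the filter, lay between 21.2 and 70.9.

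By the likeness of their profile over the 14 arrays, the genes nearest to Bcl2l11 among 12437 probe sets searched were Plcd1, a phospholipase C (r = 0.90), Apbb2, an amyloid precursor-binding adaptor (0.90), and Iqgap1, a cytoskeletal scaffold (0.89). For Bad, on probe set 1416582_a_at alone, they were Stam2 (0.79), Hmgn3 (0.79) and Fbh1 (0.78). For Bid they were Plk1, a mitotic kinase (0.84), Gabpa, an ETS family factor (0.82), and Gtse1, a gene of the G2 and S phases (0.81). These are the highest of many values, given as description.

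Bbc3 encodes Puma, a BH3-only protein induced by p53 and by loss of survival signals. Its probe set, 1423315_at, read 78.1 and 109.5 on estradiol day 2, 96.5 and 72.2 on day 3, and 82.7 and 86.9 on day 6, against 69.1 and 72.7 in control. Genistein arrays read 66.0 to 93.3. One estradiol day 3 array fell within the control range and 2 genistein arrays lay under it. The changes over the mean of days, 0.24 for estradiol (interval -0.13 to 0.62) and 0.16 for genistein (-0.21 to 0.53), had adjusted p of 0.538 and 0.753 in limma.

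Bid, the BH3-only protein that caspase 8 cuts to link death receptors to mitochondria, had one of the smallest spreads within groups among members. It read 211.3 to 259.1 on estradiol arrays, 189.6 to 268.6 on genistein arrays, and 258.7 and 235.6 on control arrays. The intervals of -0.36 to 0.15 for estradiol and -0.38 to 0.13 for genistein bound any change over the mean of days. Its SD within groups on the log2 scale, 0.0974, was at percentile 5.58 among all tested probe sets. Its F over the 7 groups, 1.54, was at percentile 60.7 among them. On genistein day 2 both arrays, 263.4 and 268.6, lay above both controls, and on day 3 both, 203.5 and 210.0, lay below them. Both arrays of genistein day 6, 227.1 and 189.6, and of estradiol day 2, 211.3 and 227.0, also lay below both controls. The F test over the genistein days gave F = 3.60 with an adjusted p of 0.861 in limma. These values are of probe set 1417045_at; the dim 1448560_at, between 5.3 and 61.9, was not tested.

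Bad, the BH3-only protein held inactive by phosphorylation under growth factor signalling, was the member with the lowest reading relative to control. Probe set 1416582_a_at read 110.6 and 132.7 on estradiol day 2, 47.6 and 101.4 on day 3, and 159.9 and 139.2 on day 6, against 157.2 and 134.0 in control. Both day 3 arrays were under both controls, and on the log2 scale they lay further apart than the 2 arrays of any other group. The day 3 change of -0.90 had an adjusted p of 0.283, and the F test over the estradiol days (F = 6.46) one of 0.625, both in limma. Both day 3 arrays were deposited at another scale, and without its replicate 1 the change was -0.46. The second probe set, 1416583_at, did not share the day 3 reading, with 64.44 ± 0.554 on that day (SD, n = 2), against 60.75 ± 8.98 in control (SD, n = 2). Its estradiol minus genistein difference over the mean of days was -0.29, with an interval of -0.55 to -0.03 and an adjusted p of 0.237 in limma. The 2 probe sets correlated at 0.04 over the arrays.

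Bak1 encodes Bak, the only effector measured here. Probe set 1418991_at read 131.9 and 146.5 on estradiol day 2, 138.6 and 145.1 on day 3, and 119.3 and 127.0 on day 6, against 113.8 and 85.2 in control. All 6 estradiol arrays were above both controls. The genistein arrays ran between 85.9 and 150.6 and overlapped the controls. The changes were 0.39 for estradiol (interval 0.00 to 0.78, adjusted p = 0.334 in limma) and 0.17 for genistein (-0.22 to 0.56, adjusted p = 0.751). Without control replicate 2, the lower control, the estradiol value was 0.21 and the genistein value -0.01. The dim probe set 1425716_s_at lay between 5.2 and 40.1 and was not tested.

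Among the pro-survival members, Bcl2l1, which encodes Bcl-xL, had the probe set with the largest F over the 7 groups, 5.62, at percentile 97.9 among all tested. This probe set, 1420887_a_at, read 74.7 and 78.8 on estradiol day 2, 141.1 and 126.0 on day 3, and 163.3 and 127.9 on day 6. Genistein arrays read 105.1 and 118.9 on day 2, 112.1 and 138.7 on day 3, and 78.0 and 104.0 on day 6. Control arrays read 90.3 and 66.8. The estradiol arrays of day 2 lay within the control range and those of days 3 and 6 above it, while the genistein arrays of days 2 and 3 lay above it and 1 of day 6 within it.

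For this probe set the estradiol changes were -0.02, 0.67 and 0.78 on days 2, 3 and 6, with limma's adjusted p of 0.28 on day 3 and 0.0923 on day 6. The genistein changes were 0.45, 0.59 and 0.18. Estradiol minus genistein was -0.46 on day 2 (adjusted p = 0.695) and 0.60 on day 6 (0.214). The F test over the estradiol days gave F = 9.93 with an unadjusted p of 0.00215 and an adjusted p of 0.494 in limma. The test of treatment by day gave F = 7.52 with an unadjusted p of 0.00621 and an adjusted p of 1. Without control replicate 1 the estradiol day 6 change was 0.96, with an adjusted p of 0.0442. No difference between the courses of the treatments was therefore called. Among members, the F test over the estradiol days had an unadjusted p below 0.05 for 2 of 18, over the genistein days for 1 and for treatment by day for 2, beside 6.92%, 5.79% and 4.24% of all probe sets; 0 passed in each, beside 0.0221%, 0% and 0%.

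The brighter Bcl2l1 probe set, 1420888_at, did not follow the same course over the estradiol days. It read 502.7 and 287.2 on estradiol day 2, 336.3 and 354.3 on day 3, and 435.8 and 347.7 on day 6, against 334.2 and 279.6 in control. The estradiol day 2 arrays lay further from each other than their mean from that of control. Genistein arrays read 298.1 and 465.8 on day 2, 465.9 and 391.5 on day 3, and 310.9 and 288.7 on day 6. On both probe sets the genistein mean was highest on day 3 and lowest on day 6. Estradiol minus genistein on day 6 was 0.36 on 1420888_at (adjusted p = 0.547 in limma), with the same sign as on the other probe set. The changes of 1420888_at over the mean of days were 0.27 for estradiol (interval -0.16 to 0.69) and 0.24 for genistein (-0.19 to 0.66), and its correlation with the other probe set was 0.35. Of the 2 dim probe sets, 1426191_a_at was at 8.1 on replicate 1 of estradiol day 2, 4.2 on replicate 1 of genistein day 6 and 6.3 on control replicate 2, and between 26.4 and 83.1 on the other 11 arrays. The other, 1426050_at, lay between 3.9 and 35.1.

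Bcl2, the founding pro-survival gene, is switched off in most double-positive thymocytes and on in mature ones. Its probe set, 1422938_at, read 110.5 and 150.8 on estradiol day 2, 106.2 and 122.2 on day 3, and 109.1 and 108.4 on day 6. Genistein arrays read 97.3 to 141.7, with a median of 118.4, and control arrays read 104.9 and 94.2. All 6 estradiol arrays and 5 of 6 genistein arrays were above the higher control, the lowest of the estradiol arrays only just. The changes were 0.20 (interval -0.14 to 0.55, adjusted p = 0.588 in limma) and 0.24 (-0.11 to 0.59, adjusted p = 0.593).

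Mcl1, a short-lived pro-survival protein, was measured by 6 probe sets, which did not point one way for estradiol against control. Their changes over the mean of the estradiol days ran between -0.15 and 0.19, with 2 above 0, and over the genistein days between 0.00 and 0.20. Estradiol minus genistein over the mean of days was below 0 on all 6, between -0.18 and -0.01, and none passed. The brightest, 1437527_x_at, read 1051.7 to 1238.3 on estradiol arrays, 1097.2 to 1645.4 on genistein arrays, and 1188.7 and 1233.2 on control arrays. Its changes were -0.04 for estradiol (interval -0.32 to 0.24) and 0.14 for genistein (-0.14 to 0.42). The 3 probe sets whose suffix _x_at marks probes that may bind other transcripts had Pearson r of 0.61 to 0.64 with the Gapdh ratio over the 14 arrays, against -0.14 to 0.20 for the other 3, beside a median size of 0.24 over all tested probe sets. With that ratio as a covariate, 1437527_x_at gave -0.08 and 0.03. Other members also had sizes of r with the Gapdh ratio above that median. They included -0.52 and -0.45 for Bcl2l11 1456006_at and 1435449_at, and -0.40 for Bcl2l1 1420887_a_at. Bid 1417045_at gave -0.39 and Bak1 1418991_at -0.38, while Bcl2l11 1456005_a_at gave 0.15.

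Probe set 1448503_at of Mcl1 had one of the smallest spreads of any probe set, with an SD within groups of 0.083, at percentile 2.73. It read 918.9 and 905.6, 905.7 and 847.5, and 749.2 and 711.5 on estradiol days 2, 3 and 6, and 769.5 and 762.6, 1018.6 and 1053.4, and 816.5 and 921.8 on genistein days 2, 3 and 6. Control arrays read 936.6 and 799.9. Estradiol day 6 and genistein day 2 were thus under both controls and genistein day 3 over both. With 2 arrays a side such separation was frequent among members. On estradiol day 6, 9 of 18 probe sets lay above both controls and 2 below. On genistein day 2 the counts were 8 and 3, and on genistein day 3 they were 6 and 2. The share over all tested probe sets was not counted for single days, including those given for Bid and Bad. The F test over the genistein days gave 5.96 (adjusted p = 0.772 in limma), and treatment by day 5.13 (adjusted p = 1).

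**Figure D2:**
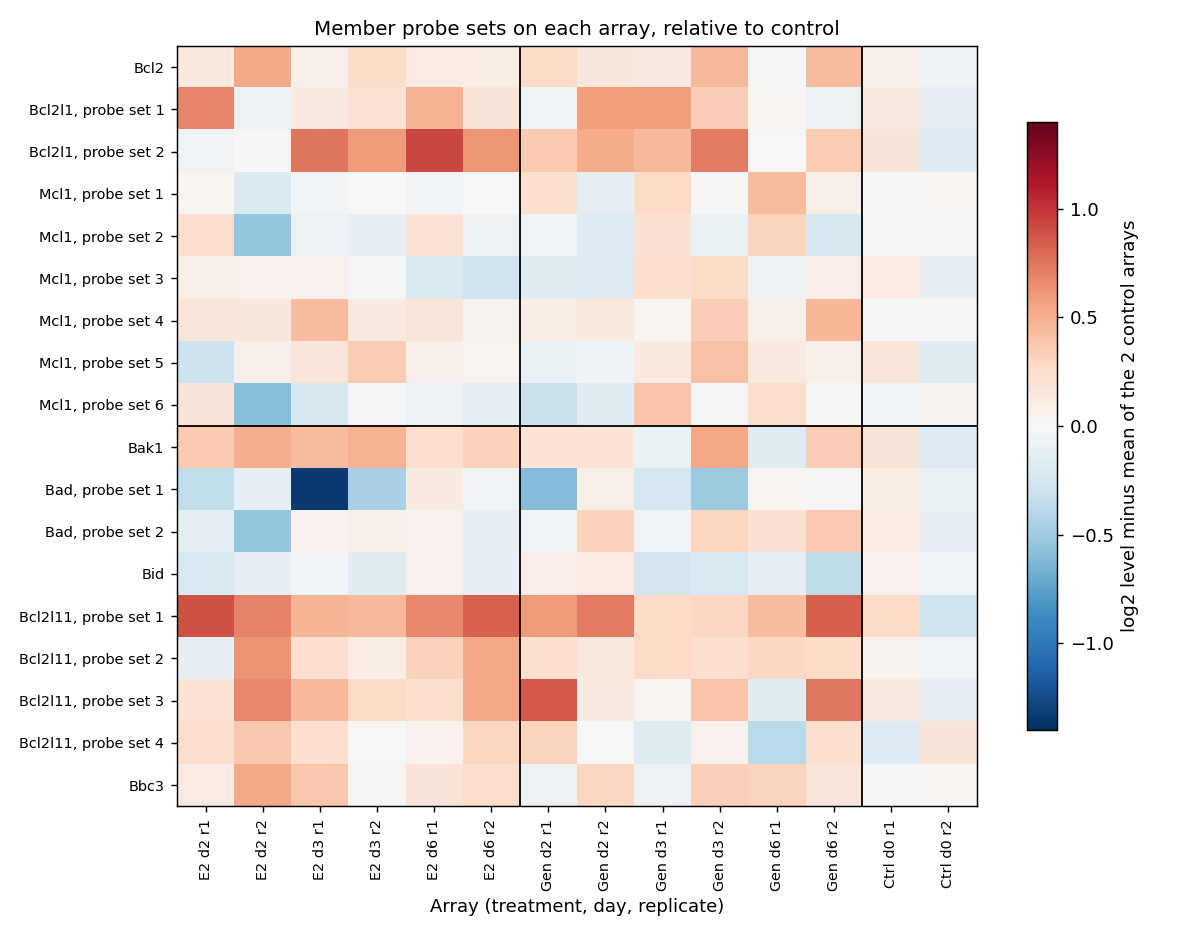
log2(signal + 16) of each tested member probe set on each array, minus the mean of the 2 control arrays, with estradiol (E2) arrays left, genistein (Gen) arrays in the middle and control (Ctrl) arrays right. Pro-survival genes are above the line and pro-death genes under it, probe sets of a gene are numbered by falling mean signal, and values run between -1.34 for Bad on replicate 1 of estradiol day 3 and 0.93 for Bcl2l1 on replicate 1 of estradiol day 6.

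The pro-death and pro-survival sides are set side by side here, and the difference between them was not tested. Over the mean of the estradiol days the median log2 change was 0.24 for the pro-death probe sets, with 6 of 9 above 0, and 0.07 for the pro-survival ones, with 5 of 9 above 0, beside 0.00 for all tested probe sets. Over the genistein days it was 0.17 (7 of 9 above 0) for pro-death and 0.14 (8 of 9) for pro-survival, beside 0.01. By these medians over probe sets, the sides were furthest apart on estradiol day 2. They were 0.31 for pro-death and -0.02 for pro-survival, beside 0.02 for all tested probe sets. On estradiol days 3 and 6 the medians were 0.16 and 0.21 for pro-death and 0.17 and 0.06 for pro-survival. Probe sets of one gene share their target. Bcl2l11 supplied 4 of the 9 pro-death and Mcl1 6 of the 9 pro-survival probe sets, so the medians lean on these genes. On the brightest probe set of each gene, estradiol day 2 gave 0.33 for Bcl2, 0.30 for Bcl2l1 and -0.08 for Mcl1. For pro-death genes it gave 0.44 for Bak1, -0.23 for Bad, -0.16 for Bid, 0.79 for Bcl2l11 and 0.32 for Bbc3. By gene, both sides thus held values above and below 0. The median size of change, sign aside, was 0.20 for members with estradiol against 0.16 for all tested probe sets, and 0.18 with genistein against 0.14.

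Separation of the arrays was counted as well. With estradiol, 5 of 18 probe sets had all 6 arrays above both controls, beside 8.04% of all tested. They were Bcl2, Mcl1 1416880_at, Bak1, and Bcl2l11 1456005_a_at and 1435449_at. No member probe set had all 6 below, beside 6.96%. The 5 share the same 2 control arrays, 2 of them are of Bcl2l11, and the other Mcl1 probe sets overlapped control. None of the 5 passed limma's adjusted test. With genistein 2 of 18 had all 6 arrays above both controls, Mcl1 1416880_at and Bcl2l11 1435448_at, beside 4.49%. None lay below with genistein, beside 4.19%. No member separated all estradiol from all genistein arrays, which 0.965% of all tested did with estradiol higher and 0.413% with estradiol lower.

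**Figure D3:**
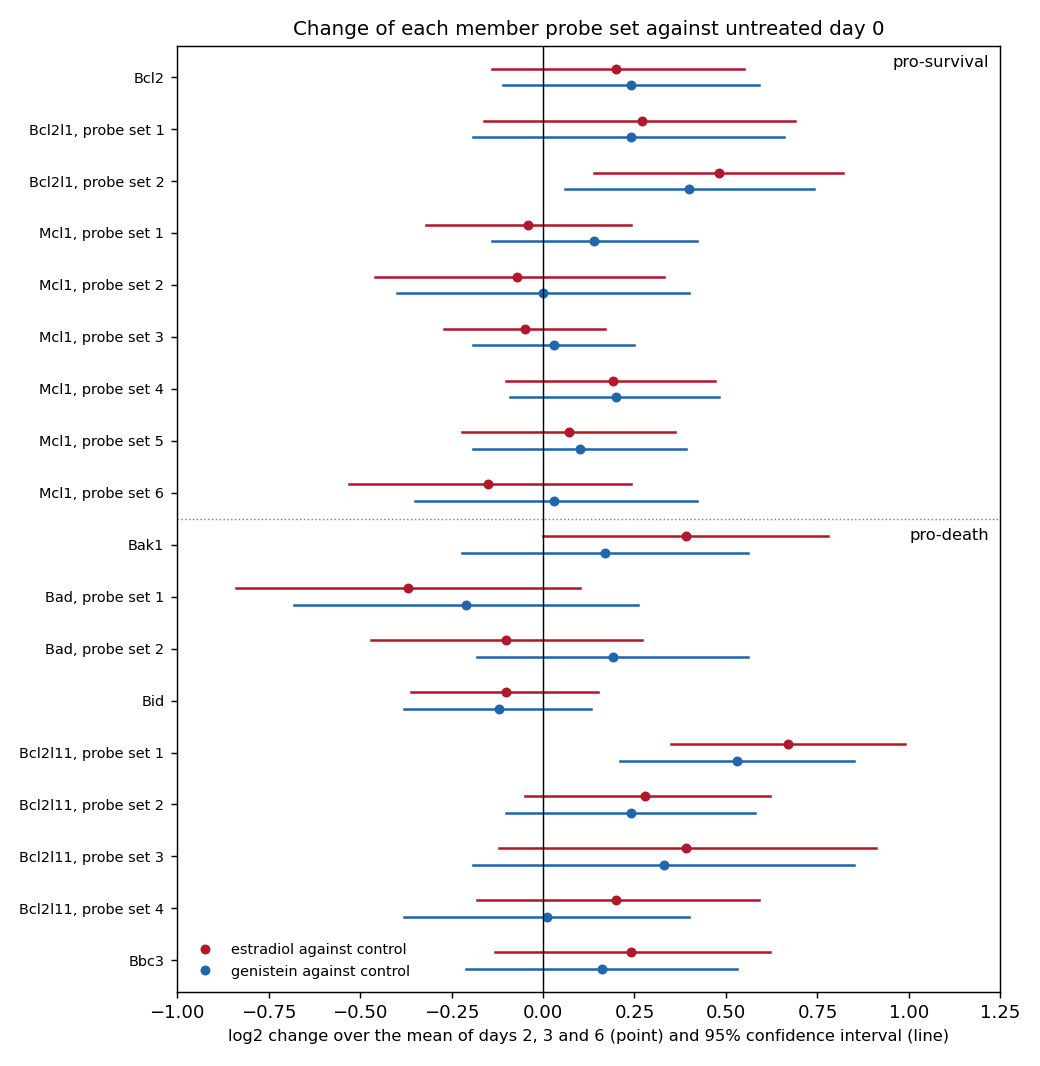
log2 change against control over the mean of days 2, 3 and 6 for the 18 tested member probe sets, with 95% confidence intervals from limma. Estradiol (red) is drawn above genistein (blue) for each probe set, and probe sets of a gene are numbered by falling mean signal; the first Bcl2l11 probe set has the largest values, 0.67 for estradiol and 0.53 for genistein, and most other intervals include 0.

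Summed signals of most marker lists were higher on every estradiol array than on both control arrays. Summed signal of 11 macrophage markers was 4012 to 4410 on estradiol arrays, 3029 to 3958 on genistein arrays and 3015 to 3220 on control arrays. Of the 11, 4 passed against control over the mean of the estradiol days, beside 0.604% of all probe sets tested. The summed signals of 9 thymic epithelial markers were 6722 to 7814, 5919 to 6700 and 5027 to 5424, with 4 passing, and those of 6 adipocyte markers 2133 to 3652, 1090 to 2224 and 1463 to 1686, with 3 passing. Neutrophil markers summed to 1246 to 1796 on estradiol arrays, 564.5 to 1166 on genistein arrays and 808.7 to 833.5 on control arrays, and fibroblast markers to 1542 to 1861, 1045 to 1299 and 1011 to 1249. Early thymocyte markers summed to 1538 to 1992, 1441 to 1578 and 1222 to 1305, above control in both treatments, and mature T cell markers to 702.4 to 788.3, 545.4 to 823.1 and 535.8 to 615.6. None of the markers in these 4 lists passed over the mean of days against control in limma, with 5 of 5 neutrophil, 5 of 6 fibroblast, 5 of 7 early thymocyte and 2 of 4 mature T cell markers at an unadjusted p below 0.05 for estradiol. The share of all probe sets tested at that unadjusted level was 14.8%. B and plasma cell markers summed to 2547 to 3403 on estradiol arrays, 2207 to 3286 on genistein arrays and 2212 to 2387 on control arrays. Most of that sum was Ighm, with a mean signal of 2140, and the genes of the list did not all change in the same direction with estradiol. The median change of its 5 tested genes was 0.05 over the mean of the estradiol days, with 4 above 0. On days 3 and 6 it was -0.02 and -0.03, with 2 of 5 above 0. On day 6 Jchain passed in limma, higher with estradiol, the only gene of this list to pass against control. The sums of endothelium markers, 394.4 to 533.9, 383.1 to 493.8 and 415.5 to 467.8, overlapped. The 10 double-positive thymocyte markers summed to 11990 to 14510, 13680 to 15450 and 13610 to 14080. In limma's test against control 0 passed, and 2 of 10 had an unadjusted p below 0.05 over the mean of the estradiol days. Between the treatments over the mean of days, 4 of 10 did, beside 17.1% of all probe sets tested. Of these Cd8b1 passed, lower with estradiol (-0.28, adjusted p = 0.0345 in limma). In that comparison 3 macrophage, 3 neutrophil, 2 epithelial, 4 adipocyte and 2 fibroblast markers passed with estradiol higher, beside 1.41% of all. Macrophages and epithelium also express members of the family, Bcl2l11 and Bcl2l1 among them, and the part of any of these cells in the values above was not tested.

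Genes around the family gave few calls. Of the other Bcl2 family genes 5 were tested, of the mitochondrial death machinery 12, of the inhibitors of apoptosis 5, of the death receptor genes 8 and of p53 and its targets 12, and in limma none passed in any comparison over the mean of days. At an unadjusted p below 0.05 they numbered 0, 0, 1, 0 and 2 with estradiol, and 0, 1, 1, 0 and 2 with genistein. For estradiol against genistein they numbered 1, 2, 0, 0 and 5, the last of 12 genes of p53 and its targets, beside the 17.1% of all probe sets given above. The smallest p among these was that of Mdm4, which holds p53 in check, with a difference of 0.39 and an adjusted p of 0.0772, and the next that of Zmat3, a p53 target, with 0.37 and 0.111. Perp, a p53 target of epithelial junctions, gave 0.67 with an adjusted p of 0.0701 with estradiol, and 0.39 with an adjusted p of 0.399 with genistein. Xiap, which blocks caspases, gave -0.35 and -0.37 with adjusted p of 0.272 and 0.383. Bcl2l2, a pro-survival relative, gave 0.22 and 0.09, and Hrk, a BH3-only relative, -0.19 with estradiol, with adjusted p between 0.439 and 0.815. The voltage-dependent channel gene Vdac3 gave -0.19 and -0.33, with adjusted p of 0.412 and 0.337, and the death receptor Fas -0.38 with estradiol, with an adjusted p of 0.398.

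Of 22 tested regulators of family members, 1 passed. On its brightest probe set, 1420772_a_at, Tsc22d3, which encodes the glucocorticoid-induced leucine zipper, rose with estradiol by 1.03 ± 0.161 (SE) on the log2 scale over the mean of days (adjusted p = 0.0127 in limma) and by 1.33 on day 6 (adjusted p = 0.00818), and with genistein by 1.07 over the mean of days (adjusted p = 0.0412). This probe set read 377.0 to 722.4 on estradiol arrays, 490.5 to 779.1 on genistein arrays, and 252.9 and 286.8 on control arrays. A second probe set, 1425281_a_at, read 309.5 to 549.2, 379.2 to 543.8, and 271.5 and 291.8 in these groups, again without overlap with control. The third and dimmest, 1425557_x_at, did overlap, with 97.1 to 121.0 on estradiol arrays, 100.8 to 139.4 on genistein arrays, and 90.3 and 163.7 on control arrays. The median of the 22 was 0.05 with estradiol and 0.04 with genistein, beside 0.00 and 0.01 for all tested. Foxo3, whose product is known to act on Bcl2l11, did not pass on its brighter tested probe set, 1434831_a_at. That probe set read 278.4 to 463.2 on estradiol arrays, 156.0 to 374.0 on genistein arrays and 103.1 to 339.6 on control arrays, which overlap. The dimmer one, 1434832_at, read 238.2 to 276.4, 206.8 to 253.7 and 180.4 to 217.0 in the same order, and only its estradiol arrays stood clear of control. The tested probe sets of the FOXO gene Foxo1, 1416981_at, 1416982_at and 1416983_s_at, overlapped control in both treatments. On estradiol and control arrays they read 173.0 to 213.5 and 171.9 to 190.7, 180.0 to 215.7 and 160.2 to 241.3, and 129.9 to 216.6 and 162.1 to 206.5.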

How the data were processed

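RNA from whole thymus was hybridised to 14 Affymetrix arrays, 2 in each of 7 groups. The deposited values are linear intensities, 1 per probe set, made by the authors with MAS5 5.0, per the submitters' processing notes; 11 arrays had a 2%-trimmed mean of 150.04 and 3 a higher one. Each array was multiplied to that common mean. The lowest 40% of probe sets by mean log2(intensity + 16) were left out. These log2 values were fitted with a mean per group in limma 3.58.1 (R 4.3.3), with a trended eBayes and Benjamini-Hochberg adjustment over 13575 probe sets within each comparison. Fold changes are on that scale and understate those of dim probe sets. P-values measure the spread between pools of 3 mice, and 2 arrays a group limit precision. Probe sets with 1 gene symbol numbered 20393, with several 691 and with none 1606; control probe sets were not named. A gene is represented by its brightest tested probe set, and other lists by genes that passed or by the 2 smallest p. Members and lists were chosen with earlier results of these data known. The fit was tested on simulated data. The labels give no pairing of replicate numbers, and the main fit has none. Of 21 group pairs, 5 had replicate deviations correlated over 0.1 (range -0.256 to 0.351). This check cannot exclude a pairing among some of the groups. Alternatives covered pseudocount, filter, scaling, trend, block, covariate and leaving out each array.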

Additional observations from a re-analysis of the deposited data

How the results depend on the processing

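Of 403 recounts of called members (15 comparisons under 27 alternatives), 387 gave 0, as reported. With the values as deposited, members called numbered 1 at estradiol day 2, 18 at estradiol day 3, 11 over the mean of the estradiol days, 18 for estradiol against genistein on day 3, 15 over the mean of days, 18 in the F test over the estradiol days and 10 in that of treatment by day; the median of all tested probe sets was then 0.28, 1.01 and 0.43 in the first 3 and 1.01 and 0.42 between treatments, since 3 estradiol arrays keep a higher scale. The Gapdh ratio as a covariate gave 1 call over the mean of the estradiol days, Bcl2l11 1456005_a_at (0.68, adjusted p = 0.0498 in limma). Leaving out each array in turn gave 0 to 1 calls at estradiol day 2, 0 to 2 at day 6, 0 to 1 over the mean of the estradiol days, and 0 to 1 at genistein day 2, at day 6 and over the mean of days. Leaving out control replicate 1 gave the higher count in each of these, and leaving out either array of genistein day 6 did so too over the mean of the estradiol days (adjusted p of 0.0456 and 0.0455). A lone array is assumed to vary like the other groups. Over all 27 alternatives that Bcl2l11 value lay between 0.39 and 1.11, with adjusted p between 0.000987 and 0.826; the replicate block gave 0.67 with an adjusted p of 0.0861, and no call among members under the block in any comparison. Causes were not tested beyond what each alternative leaves out.

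Of 913 recomputed values of single probe sets, 13 changed sign, none of them called in the report: with the values as deposited, Bad 1416582_a_at over the mean of the estradiol days (0.03) and on day 3 (0.03), Bid (0.33), Mcl1 1437527_x_at (0.41) and Bcl2l1 1420887_a_at on estradiol day 2 (0.23); that Mcl1 value also with quantile normalization (0.01), without the 3 arrays at another scale (0.00) and with scale as a block (0.08); that Bcl2l1 value also with the Gapdh covariate (0.08), without control replicate 1 (0.16) and without estradiol day 2 replicate 1 (0.01); and, without control replicate 2, Bak1 over the genistein days (-0.01) and Bcl2l1 1420887_a_at on genistein day 6 (0.00). Leaving out each array in turn, these last 2 ran between -0.01 and 0.35 and between 0.00 and 0.36, and the Bcl2l1 value on estradiol day 2 between -0.20 and 0.16. Without the 3 arrays no value could be had for estradiol day 3.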
